A study of Mus musculus with 6 samples.

Results

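Osteoclast differentiation and resorption was followed through 9 genes of the 56980 in the deposited table, taken by gene symbol from a list grouped by role: *Dcstamp*, *Ocstamp* and *Atp6v0d2* for cell fusion, *Calcr* and *Oscar* as receptors, *Nfatc1* as the transcription factor, and *Ctsk*, *Acp5* and *Car2* for resorption. The 9 genes and all lists below were chosen with earlier results of these data known. The RNA came from BM MSCs of female mice in 2 groups of 3 samples. All of these mice underwent OVX at 8 weeks of age, had their own gut microbiota depleted with antibiotics, and then received FMT for 8 weeks. The donors were sedentary OVX mice for the TranspCtrl group and exercised OVX mice for the TranspExer group. The MSCs were the adherent cells of flushed marrow after 7 days of culture with washes. No sorting step and no osteoclast induction were described, and the labels do not say that each sample was a separate animal, so p-values measure the spread between these samples, which may be technical.

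Osteoclasts are the bone-resorbing cells of the monocyte and macrophage lineage. Their precursors respond to M-CSF and to RANKL, a ligand made largely by stromal cells and osteocytes, and signals from RANK together with ITAM-bearing receptors raise the transcription factor NFATc1, which drives the genes of the mature cell. Precursors then fuse into multinucleated cells, seal onto bone, acidify the space beneath and digest the matrix with cathepsin K. Several of these genes are also used elsewhere, such as *Nfatc1* in lymphocytes and endothelium, *Car2* in red cell precursors, *Acp5* in macrophages and *Ctsk* in fibroblasts.

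Total counts ranged from 17647682 to 21319228 per sample, so a floor of 3 counts, which allows for counting error only, was worth 0.139 to 0.174 CPM (counts scaled by TMM to a common library size). Markers of several cell types were present in all samples, including stroma (*Col1a1*, 8040 ± 3020 CPM in TranspCtrl and 7220 ± 460 CPM in TranspExer, SD, n = 3) and macrophages (*Adgre1*, 358 ± 28.4 CPM and 400 ± 12.6 CPM, SD, n = 3). TranspCtrl replicate 1 stood apart from the other TranspCtrl samples. Between it and the others, the chi-square of a gene averaged 54 and 59.2, against 3.79 between replicates 2 and 3 and 4.43 to 7.82 within TranspExer. In bulk RNA, fewer osteoclast-lineage cells and less RNA per cell cannot be told apart.

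*Ctsk*, *Acp5*, *Dcstamp* and *Ocstamp* fell in the TranspExer group, while the fusion-associated pump subunit *Atp6v0d2* rose and *Nfatc1* and *Car2* did not pass the test. Of the 9 genes, 6 were lower (*Ctsk*, *Acp5*, *Dcstamp*, *Ocstamp*, *Oscar* and *Calcr*) and 1 was higher at an adjusted p-value under 0.05 (edgeR's quasi-likelihood test, Benjamini-Hochberg over 15190 genes). Of all tested genes, 15.5% were lower and 16.6% higher by the same rule, 32.2% in all. Such shares are given as a description, since the 9 were chosen with earlier results known. With an absolute fold change of at least 2 as a further requirement, which defines a DEG here, 5 were lower and 1 higher, where the shares of all tested genes were 5.28% and 3.5%, or 8.78% in either direction. These counts were the same without TranspCtrl replicate 1. The groups did not overlap for 7 of the 9 genes, 6 with TranspExer lower and 1 with it higher, and for 52.4% of all tested genes (25.1% lower and 27.2% higher). All 9 passed the filter on low counts, but *Calcr* and *Oscar* did so through their TranspCtrl samples alone and so had to differ, so their calls are no support for the count. Of the other 7 genes, 4 were lower and 1 higher.

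Cathepsin K, the cysteine protease that cleaves bone collagen, had the smallest adjusted p-value of the 9. *Ctsk* (ENSMUSG00000028111, chr3:95499256-95509362, GRCm38) had 190, 134 and 133 CPM in TranspCtrl replicates 1, 2 and 3, and 28.4, 26.2 and 25.4 CPM in TranspExer replicates 1, 2 and 3. TranspCtrl replicate 1 was the highest sample, and every TranspExer sample lay far below the lowest TranspCtrl sample. The change was 5.71-fold lower in TranspExer, or -2.51 on the log2 scale (standard error, SE, 0.15, adjusted p = 4.96e-05). Without TranspCtrl replicate 1 it was -2.33 (SE 0.06, adjusted p = 5.04e-11).

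*Acp5* (ENSMUSG00000001348, chr9:22126727-22135711) encodes tartrate-resistant acid phosphatase, the enzyme behind TRAP staining. It had 275, 205 and 219 CPM in the TranspCtrl replicates and 90.9, 102 and 92.6 CPM in the TranspExer replicates. The groups did not overlap, and replicate 1 was again the highest TranspCtrl sample. The log2 fold change was -1.29 (SE 0.12, adjusted p = 0.000283), and -1.16 without TranspCtrl replicate 1. A transcript on the opposite strand, *6530413G14Rik*, overlaps an exon of *Acp5* and had at most 3 counts in any sample.

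The fall of *Ctsk* was larger in size than that of *Acp5*. On a per-length scale (TPM, from the gene lengths in the table), the ratio of *Ctsk* to *Acp5* was 0.66, 0.626 and 0.583 in TranspCtrl and 0.299, 0.246 and 0.263 in TranspExer. The ratios did not overlap between groups (exact two-sided permutation test, p = 0.1, the smallest that 3 samples against 3 allow).

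*Car2* (ENSMUSG00000027562, chr3:14886273-14900770), carbonic anhydrase 2, supplies the protons that the osteoclast secretes. It had 6.93, 6.67 and 7.21 CPM in TranspCtrl and 10.8, 8.95 and 7.05 CPM in TranspExer. The groups overlapped at TranspExer replicate 3, and the log2 fold change of 0.36 (95% interval -0.02 to 0.75, adjusted p = 0.13) did not pass the test. Red cell precursors also express *Car2*. The summed level of 7 erythroid markers was low, with 1.39 to 2.37 CPM in TranspCtrl and 3.82 to 5.23 CPM in TranspExer, and *Car1* had no count in any sample. Most of that sum was *Epor*, which encodes the erythropoietin receptor, the one of them past the filter, at 1.34 on the log2 scale (adjusted p = 0.00492), and its part in the *Car2* values was not tested.

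**Figure D1:**
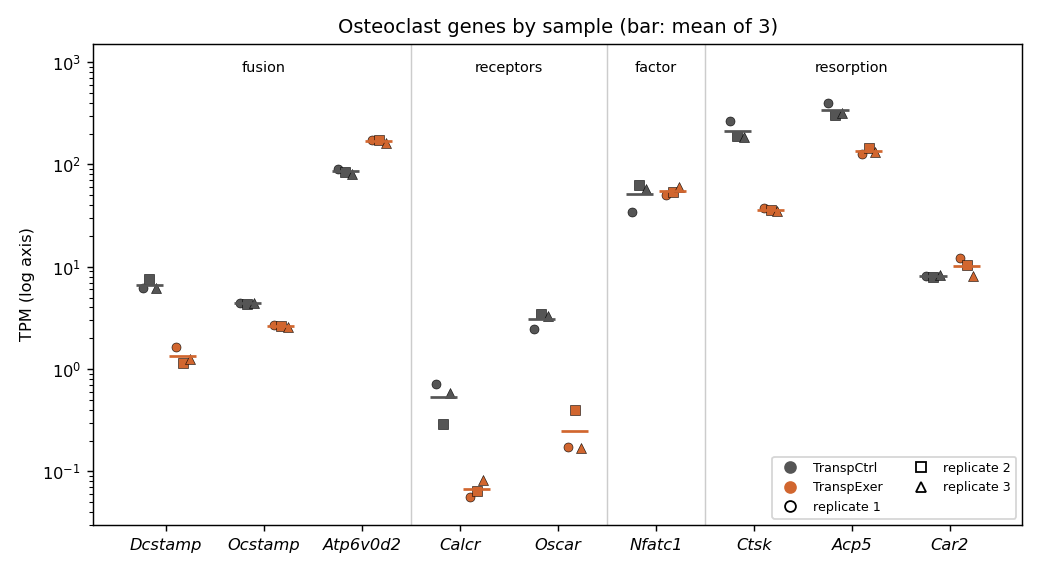
TPM (log axis) of the 9 osteoclast genes in each sample, grouped by role, with grey for TranspCtrl, orange for TranspExer, one symbol per replicate number and a bar for the mean of 3. *Ctsk*, *Acp5*, *Dcstamp*, *Ocstamp*, *Calcr* and *Oscar* lie lower in every TranspExer sample, *Atp6v0d2* lies higher, and *Nfatc1* and *Car2* overlap.

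Fusion genes went in both directions. *Dcstamp* (ENSMUSG00000022303, chr15:39745930-39760938), the transmembrane protein required for precursors to fuse, had counts of 121, 139 and 127 in the TranspCtrl samples against 31, 19 and 24 in the TranspExer samples, or 6.32 ± 0.71 CPM and 1.31 ± 0.277 CPM (SD, n = 3). The groups were far apart relative to their spread. The log2 fold change was -2.26 (SE 0.20, adjusted p = 0.000218).

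*Ocstamp* (ENSMUSG00000027670, chr2:165393760-165400405), a related transmembrane protein that also acts in fusion, had a smaller change. It had 7.67, 7.44 and 7.76 CPM in TranspCtrl and 4.87, 4.65 and 4.57 CPM in TranspExer, so the samples of each group lay close together. The log2 fold change of -0.70 (SE 0.12, adjusted p = 0.00424) was below the fold change of 2. On the per-length scale the ratio of *Dcstamp* to *Ocstamp* was 1.39 to 1.76 in TranspCtrl and 0.434 to 0.611 in TranspExer (exact two-sided permutation test, p = 0.1, the smallest possible).

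*Atp6v0d2* (ENSMUSG00000028238, chr4:19876841-19922605), a d subunit of the proton pump (V-ATPase) that is also needed for fusion, was the only one of the 9 to rise. It had 110, 100 and 99.2 CPM in TranspCtrl and 217, 213 and 197 CPM in TranspExer, with no overlap. The 2.03-fold rise (log2 fold change 1.02, SE 0.08, adjusted p = 0.000136) lay at the fold threshold. In the alternatives that used a test against no change, it stayed past the adjusted p-value threshold, with log2 fold changes of 0.93 to 1.07, and it was under a fold of 2 in 6 of 12. These 6 were scaling by library size only or by the upper quartile, the stricter filter on low counts, and the fits without TranspCtrl replicate 3, TranspExer replicate 1 or TranspExer replicate 2. Relative to *Ctsk*, *Atp6v0d2* went from a TPM ratio of 0.345 to 0.444 in TranspCtrl to one of 4.56 to 4.85 in TranspExer.

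Both receptors were at low counts. *Oscar* (ENSMUSG00000054594, chr7:3609813-3616157), the collagen-binding receptor that co-stimulates osteoclast precursors, had counts of 44, 57 and 62 in TranspCtrl, against 3, 6 and 3 in TranspExer. The summed counts, 163 against 12, gave a ratio of 12.5 of TranspCtrl over TranspExer (95% counting interval 6.95 to 24.6, Clopper-Pearson), and every TranspExer sample was below every TranspCtrl sample. *Calcr* (ENSMUSG00000023964, chr6:3685680-3764714), the calcitonin receptor of the mature osteoclast, had counts of 26, 10 and 23 in TranspCtrl, against 2, 2 and 3 in TranspExer. TranspCtrl replicate 2 was the lowest of its group and still above every TranspExer sample. As all TranspExer samples were at the floor, the summed counts, 59 against 7, gave a ratio of 7.74 of TranspCtrl over TranspExer (95% counting interval 3.53 to 20.1), an interval that overlaps that of *Oscar*. Since the filter fixed the direction of both, no p-value from the filtered fit is used here. In the edgeR fit with no filter on low counts the log2 fold change was -3.61 (SE 0.39, adjusted p = 5e-07) for *Oscar* and -2.89 (SE 0.57, adjusted p = 0.000861) for *Calcr*. Without TranspCtrl replicate 3, *Calcr* was under the filter and was not tested.

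*Nfatc1* (ENSMUSG00000033016), the factor placed above these genes, had 75.5, 136 and 127 CPM in TranspCtrl and 114, 120 and 133 CPM in TranspExer. TranspCtrl replicate 1 was the lowest sample, and the other TranspCtrl samples overlapped the TranspExer range. The log2 fold change was 0.12 (95% interval -0.34 to 0.58, adjusted p = 0.667), and it was -0.1 (SE 0.07, adjusted p = 0.248) without TranspCtrl replicate 1. Neither value passed the test.

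**Figure D2:**
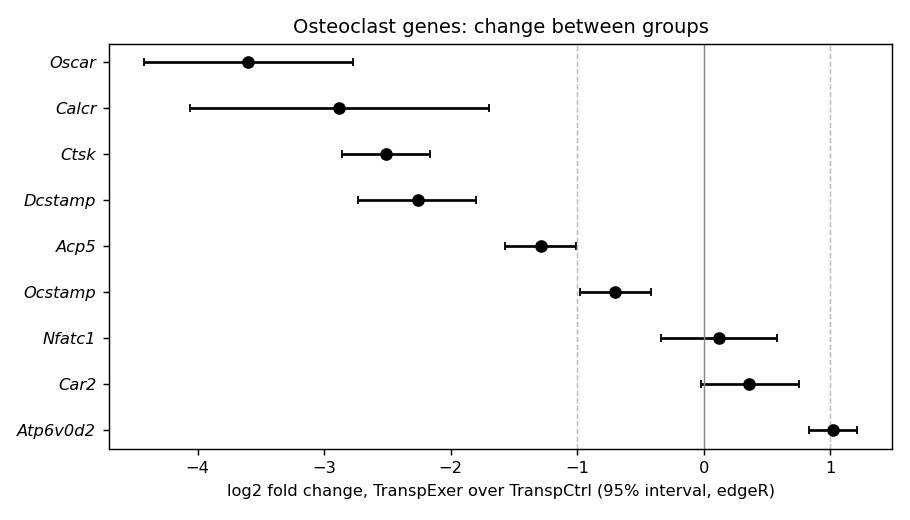
Log2 fold change of TranspExer over TranspCtrl for each of the 9 genes, with the 95% interval from edgeR, a solid line at no change and dashed lines at a fold of 2 in either direction. The intervals of *Oscar*, *Calcr*, *Ctsk*, *Dcstamp*, *Acp5* and *Ocstamp* lie below 0, that of *Atp6v0d2* lies above 0, and those of *Nfatc1* and *Car2* cross it. *Oscar* and *Calcr* passed the filter through TranspCtrl alone.

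The order of the levels by TPM also differed between the groups. In TranspCtrl the order was *Acp5* (338 ± 52.8 TPM, SD, n = 3), *Ctsk* (212 ± 44.7), *Atp6v0d2* (85.3 ± 5), *Nfatc1* (51.6 ± 15.1), *Car2*, *Dcstamp*, *Ocstamp*, *Oscar* and *Calcr*. In TranspExer it was *Atp6v0d2* (169 ± 6.9), *Acp5* (135 ± 9.73), *Nfatc1* (54.8 ± 4.87), *Ctsk* (36.2 ± 1.5), *Car2*, *Ocstamp*, *Dcstamp*, *Oscar* and *Calcr*. No neighbours in either order had overlapping sample ranges. The spread within TranspCtrl, as the coefficient of variation of CPM, ran from 2.16% for *Ocstamp* to 41.2% for *Calcr*, with 21.3% for *Ctsk* and 28.8% for *Nfatc1*. TranspCtrl replicate 1, the sample that stood apart, had the highest *Ctsk* and *Acp5* and the lowest *Nfatc1* and *Oscar* of its group.

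Promoter sequence is given for *Ctsk*, *Acp5* and *Oscar*, to set side by side the letters upstream of 2 resorption enzymes and a receptor. All 3 were lower in TranspExer, *Oscar* with a direction that the filter fixed. RefSeq promoter windows (GRCm38.p6) were matched for 4 of the 9 genes, those 3 and *Calcr*, and for *Acp5*, which has 3 windows, the one nearest the GENCODE 5′ end was used. Each line gives the 250 bases before the RefSeq start, 5′ to 3′ on the strand of the gene, and capitals mark matches, on either strand, to GGAAA (the core of NFAT sites), GAGGAA (the core of PU.1 sites), TGANTCA (AP-1), CACGTG or CATGTG (E-boxes of the kind bound by MITF). GGAAA and GAGGAA can overlap where their letters run together.
Ctsk, chr3:95498960-95499209, plus strand: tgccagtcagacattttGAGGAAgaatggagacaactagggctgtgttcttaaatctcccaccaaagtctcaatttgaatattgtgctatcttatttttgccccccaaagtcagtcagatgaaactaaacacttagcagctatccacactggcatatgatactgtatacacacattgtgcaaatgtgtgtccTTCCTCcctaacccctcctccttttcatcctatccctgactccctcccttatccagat
Acp5, chr9:22135747-22135996, minus strand: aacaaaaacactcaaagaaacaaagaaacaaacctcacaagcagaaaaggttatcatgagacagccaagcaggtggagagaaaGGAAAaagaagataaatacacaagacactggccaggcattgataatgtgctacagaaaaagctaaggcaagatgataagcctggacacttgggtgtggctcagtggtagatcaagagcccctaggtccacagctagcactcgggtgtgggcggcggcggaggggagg
Oscar, chr7:3616158-3616407, minus strand: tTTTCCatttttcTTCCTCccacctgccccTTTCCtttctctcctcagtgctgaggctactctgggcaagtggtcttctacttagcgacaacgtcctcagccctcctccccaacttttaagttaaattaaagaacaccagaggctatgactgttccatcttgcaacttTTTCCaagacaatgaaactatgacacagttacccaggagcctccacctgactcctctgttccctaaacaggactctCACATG
*Ctsk* held GAGGAA at 2 places and no other match, *Acp5* held GGAAA at 1 place, and *Oscar* held GGAAA at 3 places, GAGGAA at 1 and CATGTG at 1. *Calcr*, not printed, held GGAAA at 1 place. Of all 32851 windows of this length, 55.6% held GGAAA, 23.3% GAGGAA, 6.75% TGANTCA, 6.02% CACGTG and 12.3% CATGTG. The 4 windows shared no single motif, and a match describes letters, not binding.

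The rest of the osteoclast pathway was examined with 65 further genes in 6 lists, of which 64 were tested, to see whether the genes above and around the 9 moved with them. As these lists too were chosen with earlier results known, shares of all tested genes are given as a description. Most that moved went up: 30 were higher and 4 lower at an adjusted p-value under 0.05, where 16.6% and 15.5% of all tested genes were higher and lower. By the DEG rule 2 were higher and 1 lower, where the shares of all tested genes were 3.5% and 5.28%. The median log2 fold change was 0.30, against -0.02 over all tested genes, and 43 of the 64 did not overlap between groups, 37 with TranspExer higher and 6 with it lower, where 52.4% of all tested genes did not overlap (27.2% higher and 25.1% lower). The count of higher genes ranged from 19 (without TranspExer replicate 2) to 39 (without TranspCtrl replicate 1) when single samples were left out, and that of lower genes from 1 (without TranspCtrl replicate 2, TranspExer replicate 1 or TranspExer replicate 3) to 7 (without TranspCtrl replicate 1). The 7 include *Siglec15*, which entered that fit through TranspCtrl samples alone. With all samples, the 4 lower genes were *Mmp9*, *Nfkb2*, *Prdm1* and *Pstpip2*, and of these only *Mmp9* stayed past the threshold in every alternative tried.

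Among ligands and receptors, the ligand genes did not pass the test and the receptor of RANKL rose. *Tnfrsf11a*, which encodes RANK, had 41.1, 71.4 and 66.1 CPM in TranspCtrl and 111, 111 and 120 CPM in TranspExer, with no overlap (log2 fold change 0.94, SE 0.18, adjusted p = 0.0074). *Tnfsf11*, which encodes RANKL, had 13.7 ± 2.46 CPM and 12.4 ± 1.48 CPM (SD, n = 3; adjusted p = 0.506). *Tnfrsf11b*, the decoy receptor OPG, had 54.1 ± 3.12 CPM and 58.9 ± 2.53 CPM (SD, n = 3; adjusted p = 0.252). The 95% interval of the *Tnfsf11* log2 fold change was -0.51 to 0.22. *Csf1r*, the receptor of M-CSF and a marker of the whole lineage, had 882 ± 33 CPM and 928 ± 41.9 CPM (SD, n = 3; adjusted p = 0.511).

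In the ITAM list, which carries the co-stimulation that *Oscar* feeds into, 3 of 9 tested genes rose (*Fcer1g*, *Syk* and *Lcp2*) and 6 did not pass. The count was 2 without TranspCtrl replicate 3, without any 1 of the TranspExer samples and with library-size or upper-quartile scaling, and the call of *Lcp2* was lost in 6 of 12 alternatives. Without TranspCtrl replicate 1, 6 rose, with *Trem2*, *Tyrobp* and *Tec* added (0.54, 0.46 and 0.25 on the log2 scale), and 1 was lower, *Siglec15*, as it was without TranspExer replicate 2. The sign of *Tyrobp* turned in 1 of 12 alternatives. The adaptor *Fcer1g*, the signalling partner of *Oscar*, rose by 0.70 on the log2 scale (SE 0.11, adjusted p = 0.00265). *Oscar* itself, whose direction the filter fixed, stood at -3.61 in the fit with no filter on low counts. The kinase *Syk* rose by 0.37 on the log2 scale. *Siglec15*, another receptor of this class that is enriched in osteoclasts, was under the filter with counts of 4, 10 and 15 in TranspCtrl, against 0, 4 and 0 in TranspExer. With no filter its log2 fold change was -2.61 (SE 0.92, adjusted p = 0.0523) and did not pass. Without TranspCtrl replicate 1 or TranspExer replicate 2 it entered the test, again through TranspCtrl samples alone, and was called lower, which is no support for a direction.

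Of 17 transcription and signalling genes, 8 rose, 2 fell and 7 did not pass. With 1 sample left out the count ranged from 5 (without any 1 of the TranspExer samples) to 10 (without TranspCtrl replicate 1) that rose, and 0 fell except without TranspCtrl replicate 1, where 2 did. Of the 7 genes that restrain osteoclast formation, 4 rose and 3 did not pass. Among them, *Irf8* and *Bcl6*, transcription factors that repress osteoclast genes, rose by 0.73 and 0.87 on the log2 scale, with adjusted p = 0.000862 and 0.000451. Only 3 of the 7 rose in 8 of 12 alternatives, where the call of *Rcan1* was lost, and 5 rose without TranspCtrl replicate 1.

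Of 12 genes of acid secretion and matrix digestion, 6 rose, 1 fell and 5 did not pass, and 4 (without TranspCtrl replicate 3, TranspExer replicate 2 or TranspExer replicate 3) to 8 (without TranspCtrl replicate 1) rose with 1 sample left out. The one that fell was *Mmp9*, the gelatinase of osteoclasts and of neutrophils and macrophages. It had 230, 346 and 333 CPM in TranspCtrl and 53.4, 59.2 and 57.2 CPM in TranspExer, and fell by 2.42 on the log2 scale (SE 0.16, adjusted p = 6.5e-05). TranspCtrl replicate 1 was the lowest of its group for *Mmp9* but the highest for *Ctsk*. The pump subunits *Tcirg1*, *Atp6v1b2* and *Atp6v1c1* rose by 0.45, 0.70 and 0.41 on the log2 scale, in the direction of *Atp6v0d2*, with adjusted p = 0.0265, 0.000454 and 0.00627. The call of *Tcirg1* was lost in 7 alternatives, with adjusted p-values of up to 0.123.

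Of 13 genes of adhesion, fusion and the sealing zone, 8 rose, 1 fell and 4 did not pass. Without TranspExer replicate 2 only 4 rose and 0 fell, as the calls of *Itgav*, *Cd9*, *Cd47*, *Rac2* and *Pstpip2* were lost, and 5 rose without TranspExer replicate 1 or 3. Without TranspCtrl replicate 1, 9 rose and 3 fell. *Itgb3*, the beta chain of the vitronectin receptor with which osteoclasts hold bone, had 83.5, 107 and 94.9 CPM in TranspCtrl and 191, 200 and 216 CPM in TranspExer (log2 fold change 1.09, SE 0.11, adjusted p = 0.000344). All TranspExer samples were above all TranspCtrl samples. *Src*, the kinase of the sealing zone, had 51.4 ± 10.5 CPM and 49 ± 3.76 CPM (SD, n = 3; adjusted p = 0.747). It was called lower without TranspCtrl replicate 1 (log2 fold change -0.23, adjusted p = 0.0179), and its sign turned in 2 of 12 alternatives.

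**Figure D3:**
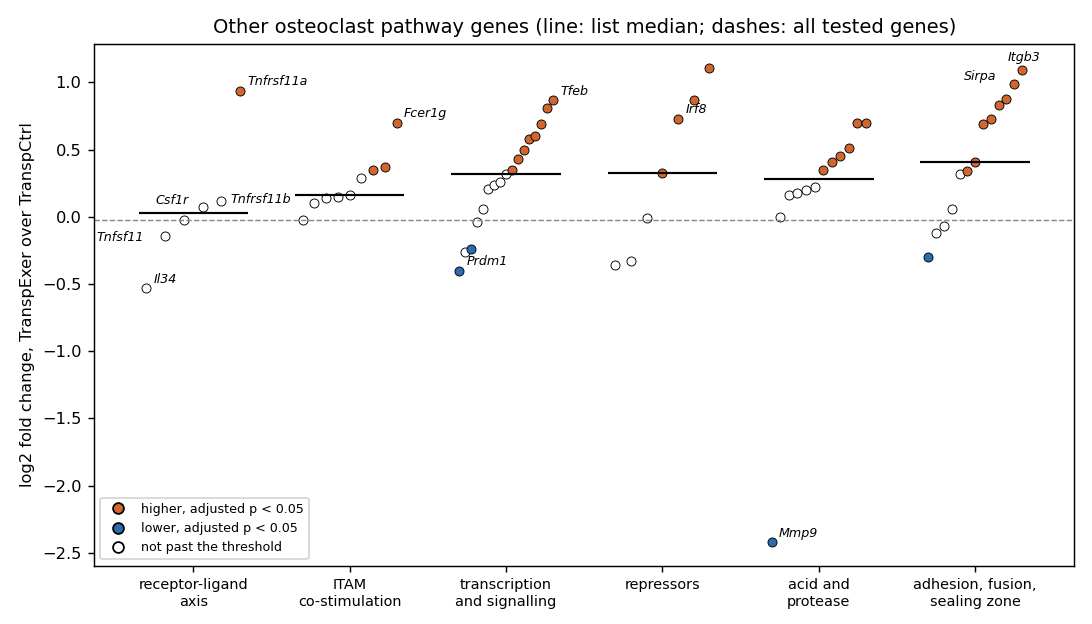
Log2 fold change of TranspExer over TranspCtrl for the 64 tested genes of 6 osteoclast pathway lists, 1 point per gene, filled where the adjusted p-value was under 0.05, with a line at each list's median and dashes at the median of all tested genes. *Mmp9* stands alone at -2.42, while *Tnfrsf11a* and *Itgb3* lie near or above 0.94.

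Closest relatives and partners of the 9 genes were then compared with them. Other cathepsin genes rose where *Ctsk* fell. *Ctsb*, *Ctsl* and *Ctss*, lysosomal cathepsins of macrophages and many other cells, rose by 0.73, 0.83 and 0.43 on the log2 scale, with adjusted p = 0.000975, 0.00274 and 0.0371, and the call of *Ctss* was lost in 8 of 12 alternatives. *Ctsb* went from 4730 ± 154 CPM to 7840 ± 254 CPM (SD, n = 3). The acid phosphatase *Acp2* rose by 0.26 on the log2 scale (adjusted p = 0.0256), a call that was lost in 9 of 12 alternatives, and *Acp6* stood at -0.05 and did not pass.

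The other d subunit gene of the pump, *Atp6v0d1*, rose by 0.48 on the log2 scale (SE 0.13, adjusted p = 0.0221), a call that was lost without any 1 of the 3 TranspExer samples. Per length, *Atp6v0d2* stood at 0.78, 0.516 and 0.515 of *Atp6v0d1* in the TranspCtrl replicates and at 0.893, 0.882 and 0.784 in the TranspExer replicates. The highest TranspCtrl value and the lowest TranspExer value were nearly equal (exact two-sided permutation test, p = 0.1, the smallest possible).

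**Figure D4:**
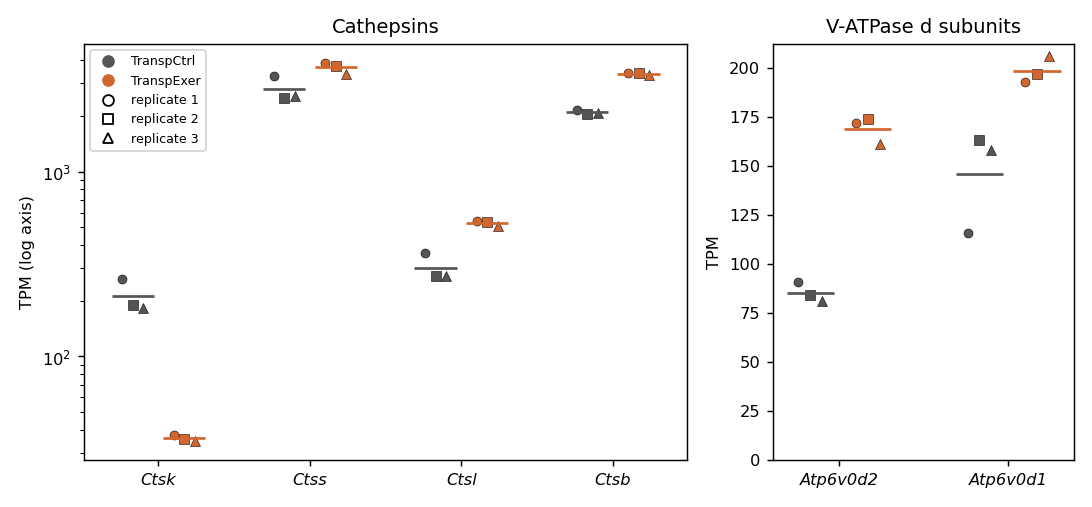
TPM per sample of *Ctsk* beside 3 other cathepsin genes (left, log axis) and of both V-ATPase d subunit genes (right, linear axis), with grey for TranspCtrl, orange for TranspExer and bars for the mean of 3. *Ctsk* lies lower in TranspExer while *Ctss*, *Ctsl* and *Ctsb* lie higher, and both d subunit genes lie higher.

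The relatives of *Nfatc1* differed among themselves. *Nfatc4* fell (log2 fold change -0.64, SE 0.14, adjusted p = 0.0109), while *Nfatc2* and *Nfatc3* had values of 0.48 and -0.06 that did not pass (adjusted p = 0.0849 and 0.53), although *Nfatc2* passed in 3 of 12 alternatives: with no filter (adjusted p = 0.0272), with a replicate block and without TranspCtrl replicate 1 (adjusted p = 0.0096). *Calcr*, whose direction the filter fixed, stood at -2.89 on the log2 scale in the fit with no filter on low counts. *Calcrl*, the receptor for CGRP and adrenomedullin, and the RAMP accessory genes *Ramp1* and *Ramp2* rose by 0.59, 0.76 and 1.33 on the log2 scale, with adjusted p = 0.00741, 0.00376 and 0.00486. *Calcrl* and *Ramp2* are endothelial genes in many tissues. The endothelial markers rose as well, all 5 of 5, with a summed level of 166 to 202 CPM in TranspCtrl and 519 to 562 CPM in TranspExer, and their part in these values was not tested. *Car13*, the one relative of *Car2* past the filter, stood at -0.15 on the log2 scale (adjusted p = 0.264).

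Markers of other cells moved with the groups, which bears on genes that osteoclasts share with them. Of 10 monocyte and macrophage markers, 3 rose, 2 fell (1 without any 1 of the TranspExer samples) and 5 did not pass. Their summed level was 8760 to 13200 CPM in TranspCtrl and 6940 to 7460 CPM in TranspExer, of which *Lyz2* was the largest part in TranspCtrl (6410 ± 2340 CPM, against 2910 ± 320 CPM in TranspExer, SD, n = 3), which fell by 1.14 on the log2 scale (SE 0.23, adjusted p = 0.00873), and by 0.80 without TranspCtrl replicate 1, with the call lost without TranspExer replicate 3 (adjusted p = 0.0506). *Adgre1*, *Csf1r* and *Itgam* did not pass, with log2 fold changes of 0.16, 0.07 and 0.07, and *Cd68* and *Mertk* rose. Without TranspCtrl replicate 1, *Adgre1* was called higher (0.23, adjusted p = 0.00277), and 4 of the 10 rose. Single macrophage markers went in both directions, and their summed level was lower in TranspExer with no overlap. Their part in the fall of *Ctsk*, *Acp5* and *Dcstamp* was not tested. All 6 B and plasma cell markers fell, from a summed 1500 to 1900 CPM to 338 to 371 CPM, among them *Mzb1* (log2 fold change -3.57), *Jchain* (-2.29) and *Ms4a1* (-1.25). Of 6 neutrophil markers, *Mpo* and *Elane* rose (2.47 and 2.16), *Ly6g* fell and 3 did not pass, although the call of *Ly6g* was lost in 9 of 12 alternatives (adjusted p up to 0.119), and the sum was 1790 to 2690 CPM and 3290 to 3540 CPM. Without TranspCtrl replicate 1, 3 of these rose, with *S100a9* added (0.27, adjusted p = 0.0198), and 0 fell. Of 6 stromal markers 4 fell, *Pdgfra* 2-fold, 1 rose and 1 did not pass, with sums of 11300, 19100 and 18400 CPM in TranspCtrl replicates 1, 2 and 3 and of 12200 to 13500 CPM in TranspExer. Without TranspCtrl replicate 1, where the sums did not overlap, 5 fell, *Col1a1* among them (-0.44 on the log2 scale, adjusted p = 1.54e-05), and without TranspExer replicate 1 only 2 fell, as the calls of *Col1a2* and *Lepr* were lost. The 1 that rose was not called without TranspCtrl replicate 3, TranspExer replicate 2 or TranspExer replicate 3. Of 4 T cell markers, 1 rose and 3 did not pass. None rose without TranspExer replicate 2 or 3, and 1 was lower without TranspCtrl replicate 1 (*Cd3e*) or TranspExer replicate 3 (*Cd8a*), so the list had no stable direction. Its sums were 47 to 48.1 CPM and 54.8 to 60.1 CPM. The endothelial DEGs with the smallest adjusted p-values were *Emcn*, *Kdr* and *Cdh5*, at 1.52, 1.55 and 2.02. The part of these lists in the values of the osteoclast genes was not tested.

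The genes whose log2 CPM ran most closely with each of the 9 across the 6 samples were taken from genes averaging at least 10 CPM. They are given as a description, since the 6 points share 1 group difference and many genes do. For *Ctsk* they were *Sars*, *Vezt* and *Jchain* (Pearson r of 0.9998, 0.9991 and 0.9991). For *Acp5* they included *Hltf* and *Igkv4-53* (0.9996 and 0.9985). Genes of B and plasma cells, *Jchain* and *Igkv4-53*, thus appeared beside both resorption enzymes. For *Dcstamp* the closest were *Sfrp4*, *Rcn1* and *Slc7a2* (0.9965, 0.9962 and 0.9958), and for *Ocstamp* they were *Bnip3*, *Slc31a1* and *Dnm3os* (0.9994, 0.9989 and 0.9981). *Atp6v0d2* ran with *Rab5c*, *Med8* and the lysosomal protease *Ctsb* (0.9993, 0.9991 and 0.9985). *Oscar* ran with *Zeb1*, *Pros1* and *Lmo7* (0.9993, 0.9976 and 0.9969), and *Calcr* with *Poldip2* and *Lrsam1* (0.9979 and 0.9934). *Nfatc1*, which did not separate the groups, ran with *Snd1*, *Usp22* and *Bmt2* (0.9999, 0.9989 and 0.9971), and *Car2* with *Pus1*, *Pabpn1* and *Aurkaip1* (0.9806, 0.9791 and 0.9745).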

How the data were processed

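The authors deposited expected counts (estimated reads per gene, not normalized, some not whole) for 56980 genes in 6 samples, with a gene length in bases. The submitters' processing notes name the build mm10. The aligner, counter, annotation and strand setting are not given in the sources used here. Counts were rounded and tested with edgeR 4.0.16 in R 4.3.3 (filterByExpr, TMM, quasi-likelihood test on group alone). P-values were adjusted by Benjamini-Hochberg over 15190 genes. The thresholds for DEGs are those of the study's methods. CPM used TMM-scaled library sizes. TPM used deposited counts and lengths. Standard errors came from the fold change and F statistic. Positions came from GENCODE M21 (GRCm38), which held 52073 of the gene identifiers. The fits were checked on simulated counts.

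The 9 genes and all lists were chosen with earlier results of these data known. Genes named are the 9, up to 3 DEGs per list and direction, genes at the top of the pathway, relatives past the filter and the 3 best-correlated genes. Some genes that this rule names are not reported here. Other genes were named after their values were seen (*Irf8*, *Bcl6*, *Rcan1*, *Fcer1g*, *Syk*, *Lcp2*, *Siglec15*, *Trem2*, *Tyrobp*, *Tec*, *Src*, *Itgav*, *Cd9*, *Cd47*, *Rac2*, *Car1*, *Nfkb2*, *Prdm1*, *Pstpip2*, *Tcirg1*, *Atp6v1b2*, *Atp6v1c1*, *Adgre1*, *Itgam*, *Cd68*, *Mertk*, *Col1a1*, *Col1a2*, *Lepr*, *Cd3e*, *Cd8a*, *S100a9* and *Ly6g*). The alternatives were DESeq2 1.42.0, upper-quartile normalization, library size only, a replicate block, no filter or a stricter filter on low counts, the fold of 2 tested in the model, and each sample left out.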

Additional observations from a re-analysis of the deposited data

How the results depend on the processing

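With each sample left out in turn, 5 to 6 of the 9 genes were lower, 1 was higher, 4 to 5 were lower DEGs and 0 to 1 was a higher DEG. In these fits the call lost was that of *Calcr*, which fell under the filter without TranspCtrl replicate 3, and *Atp6v0d2* dropped under a fold of 2 without TranspCtrl replicate 3, TranspExer replicate 1 or TranspExer replicate 2. The count of higher DEGs among the 9 was also 0 with upper-quartile normalization, with scaling by library size only and with at least 1 CPM required in all 6 samples, since the fold of *Atp6v0d2* fell under 2 while its edgeR call at an adjusted p-value under 0.05 held. The count of lower DEGs was 3 with at least 1 CPM in all samples, as *Calcr* and *Oscar* were then not tested. With the fold of 2 tested in the model (edgeR), 3 genes were lower and 0 higher, and 5 and 0 at an unadjusted p under 0.05. Of the 3, *Oscar* had its direction fixed by the filter, which leaves 2, *Ctsk* and *Dcstamp*. *Calcr*, whose direction was fixed likewise, *Acp5* and *Atp6v0d2* had adjusted p-values of 0.0571, 0.141 and 1 there. DESeq2 gave 5 lower and 1 higher DEG. The sign of *Nfatc1* turned without TranspCtrl replicate 1 (log2 fold change -0.1, adjusted p = 0.248), and over the samples left out it ran from -0.1 to 0.28, with adjusted p = 0.248 to 0.9.

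For the 65 pathway genes, samples left out gave 1 to 7 lower and 19 to 39 higher, with 1 to 2 lower DEGs (2 without TranspCtrl replicate 1 or TranspExer replicate 2) and 1 to 4 higher DEGs (1 without TranspCtrl replicate 1, 4 without TranspCtrl replicate 2 or 3). The 7 lower genes and the 2 lower DEGs include *Siglec15*, whose direction the filter fixed. Without a filter on low counts 2 were lower. With the fold of 2 tested in the model, 0 were higher, also at an unadjusted p under 0.05, where DESeq2 gave 2 higher DEGs. With the replicate number as a block, 2 pathway genes were lower and 29 higher, and the counts over the 9 genes did not change. Deviations of same-numbered samples correlated at 0.0232, -0.00896 and 0.0443, and not every sample correlated best with its own number. Deviations from means of 3, with TranspCtrl replicate 1 standing apart, cannot show whether same-numbered samples shared a batch. Of the 250 comparisons with an alternative, 222 kept their side of the threshold or stayed within 1.5 times. *Calcr*, *Oscar* and *Siglec15*, at 62 counts or fewer per sample, are among the genes limited by depth.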
